A study of Mus musculus with 6 samples.

Results

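Dietary fat enters the body through enterocytes, the absorptive cells of the small intestine, and 10 genes of that route are described here in mouse intestinal epithelial cells, over 6 RNA-seq libraries. They are Cd36 and Npc1l1 (uptake at the brush border), Fabp1 and Fabp2 (fatty acid binding in the cytosol), Dgat1 (triglyceride synthesis), Mttp and Apob (loading of lipid onto the nascent particle), and Apoa1, Apoa4 and Apoc3 (apolipoproteins of the particle surface). They were chosen by gene symbol, as the rows of the count table with these names, and make up 10 of its 23845 genes. All 10 passed the filter on low counts, which 13935 genes (58.4%) passed. The libraries fall into 3 groups of 2. EYFP cells came from Neurog3 reporter mice labelled Neurog3+/+EYFP, with 2 Neurog3 alleles, on a mixed C57BL6 and CD1 strain. EGFP cells came from reporter mice labelled Neurog3+/-EGFP, with 1 allele, on C57BL6. Wild-type C57BL6 epithelium was the third group. Neurog3 is the transcription factor that commits gut progenitors to the enteroendocrine (hormone-secreting) lineage, and the series asks how its gene dosage affects that choice. Cells expressing Neurog3 were isolated by flow sorting, which the sources do not state for the wild-type libraries. Titles of the wild-type libraries name the duodenum in short form. The sources used here do not give the gut segment from which cells were sorted, the gates, the ages of the mice or whether replicates are separate animals, so p-values measure only the spread between these samples.

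Fat absorption follows an ordered route. Fatty acids and monoglycerides released in the gut lumen enter the enterocyte, where binding proteins hold them in solution until acyltransferases rebuild triglyceride at the endoplasmic reticulum. The microsomal triglyceride transfer protein then loads this lipid onto apolipoprotein B, and the growing chylomicron leaves through the Golgi with further apolipoproteins on its surface. Cholesterol enters by a separate transporter and leaves in the same particle. These genes are known as markers of mature enterocytes, and the nuclear receptors HNF4A and HNF4G are known regulators of enterocyte genes.

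Promoter sequences, 250 bases before to 50 after the start, were available for 8 of the 10 genes in a RefSeq table of build GRCm38.p6 (mm10). Apoc3 and Dgat1 were the other two. Each was searched on both strands for an HNF4 core (CAAAGTNCA), a GATA motif (AGATAA) and a TATA motif (TATAAA), none of which contains another. The HNF4 core was found in 2 of the 8 promoters, those of Apoa4 and Fabp2, against 1.41% of all 32851 promoters in the table. The TATA motif was found in 2, Apob at positions -60 to -55 and Fabp1 at -30 to -25, against 13.6%, and the GATA motif in 0 of 8, against 11.2%. Positions in Apob count from the start of its promoter entry (7977427 to 7977726), which is not the gene start at 7977629. For Cd36, on the minus strand, the promoter entry (17835847 to 17836146) lay inside the gene (17781690 to 17888959), so its outermost start was not searched. The 2 promoters with an HNF4 core are shown because the HNF4 genes are among the regulators measured in the same libraries. Each reads 5′ to 3′ on the strand of its gene, and capitals mark the motif.
Apoa4, chr9:46240594-46240893, plus strand: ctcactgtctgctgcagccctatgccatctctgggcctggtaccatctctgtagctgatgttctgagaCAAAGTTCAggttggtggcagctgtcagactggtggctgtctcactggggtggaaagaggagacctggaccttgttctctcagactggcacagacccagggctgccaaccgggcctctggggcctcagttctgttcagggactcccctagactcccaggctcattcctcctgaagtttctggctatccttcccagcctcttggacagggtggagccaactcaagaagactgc
Fabp2, chr3:122894822-122895121, plus strand: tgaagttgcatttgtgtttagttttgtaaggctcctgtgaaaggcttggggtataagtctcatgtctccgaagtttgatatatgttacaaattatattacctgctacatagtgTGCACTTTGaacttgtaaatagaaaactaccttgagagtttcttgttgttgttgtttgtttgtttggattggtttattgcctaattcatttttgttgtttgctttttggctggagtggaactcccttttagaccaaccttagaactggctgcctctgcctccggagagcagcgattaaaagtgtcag
The HNF4 core lay at positions -182 to -174 in Apoa4. In Fabp2 it lay at -137 to -129 and was read on the other strand. A match describes letters and not a bound factor.

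Total estimated counts ran from 7938358 to 20589683 per library. Levels are in CPM, a gene's counts relative to the library total after TMM scaling, means are given ± SD (n = 2), log2 fold changes ± SE, and adjusted p-values come from edgeR's quasi-likelihood F test over all genes tested. Neurog3 stood at 563 and 348 CPM in EYFP cells, 119 and 179 CPM in EGFP cells and 5.99 and 6.39 CPM in wild type, so that every sorted library stood above both wild-type libraries. Strain and reporter differ between EYFP and EGFP cells, as do sex-linked transcripts: Xist was at 0.634 and 2.35 CPM in EYFP, 966 and 969 CPM in EGFP, and 1.17 and 726 CPM in wild type. For every result below, genotype, strain, reporter and sex of the mice cannot be told apart between EYFP and EGFP cells. Likewise, sorting and reporter genotype cannot be told apart between sorted cells and wild type, nor can strain between EYFP cells and wild type. Sex was not balanced there either. Ddx3y, a Y-linked transcript, was at 37.3 and 39.3 CPM in EYFP, 0 and 0 CPM in EGFP, and 62.3 and 0.121 CPM in wild type. Both comparisons with wild type share the same 2 wild-type libraries. In bulk libraries, fewer cells of a type and less RNA per cell cannot be told apart.

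All 10 genes were lower in both kinds of sorted cell than in wild-type epithelium, and the 4 sorted libraries stood below both wild-type libraries for every one of them. In EYFP cells 10 of 10 were lower, against 33.5% of all genes tested that were lower and 27.1% that were higher. The median log2 fold change of the 10 was -4.90 and that of all genes tested was -0.12. In EGFP cells 10 of 10 were lower, against 21.9% of all genes tested that were lower and 19.6% that were higher, with a median of -4.65 beside 0.00 for all genes. No overlap between the groups, with the sorted cells below, was seen for 45.0% of all genes tested in EYFP and 36.2% in EGFP cells. The 10 genes took 0.0792% and 0.143% of all counts in EYFP cells and 0.104% and 0.133% in EGFP cells, against 2.11% and 3.01% in wild type. Apoa4, Apoa1, Fabp2 and Fabp1 ranked 5, 7, 8 and 15 by mean CPM among the 23845 genes in wild type. In EYFP cells they ranked 1514, 1411, 1614 and 2703, and in EGFP cells 2307, 1656, 429 and 2353.

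**Figure D1:**
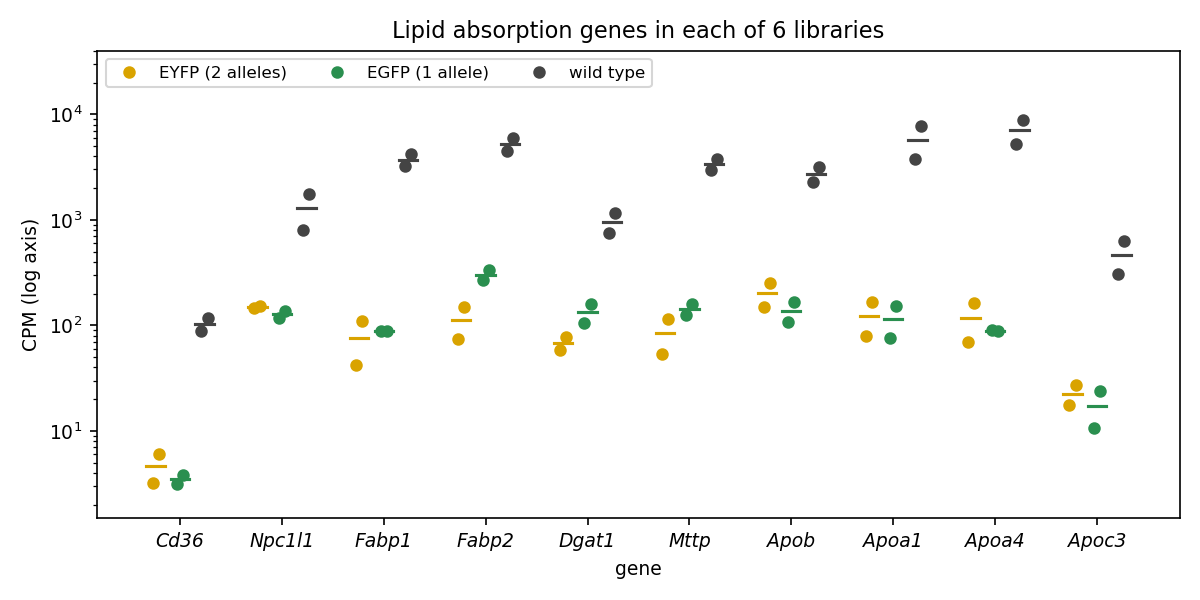
CPM (log axis) of the 10 genes in order of their step in fat absorption, 1 point per library and a bar at each group mean, for EYFP, EGFP and wild-type libraries. The wild-type points stand above all 4 sorted libraries for each gene, by the least for Dgat1 (4.71-fold between the nearest points) and by the most for Apoa4 (32.03-fold).

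Uptake genes came first in the route. Cd36 (chromosome 5, 17781690 to 17888959) encodes a membrane glycoprotein that binds long-chain fatty acids. It stood at 3.24 and 6.05 CPM in EYFP cells, 3.13 and 3.802 CPM in EGFP cells and 88.7 and 116 CPM in wild type. It was thus the least abundant of the 10 in all groups, and the sorted groups overlapped each other. Cd36 was 22.2-fold lower in EYFP cells (log2 fold change -4.47 ± 0.31, edgeR adjusted p = 2.4e-05) and 29.2-fold lower in EGFP cells (-4.87 ± 0.32, edgeR adjusted p = 5.5e-05) than in wild type. Npc1l1 (chromosome 11, 6211011 to 6230245) encodes the sterol transporter that brings cholesterol into the enterocyte and is the target of ezetimibe. It stood at 145 and 153 CPM in EYFP cells, 117 and 137 CPM in EGFP cells and 796 and 1772 CPM in wild type. The EYFP libraries lay just above the EGFP libraries, and the wild-type libraries were 2.23-fold apart. Npc1l1 was 8.61-fold lower in EYFP cells (-3.11 ± 0.38, edgeR adjusted p = 0.00041) and 10.1-fold lower in EGFP cells (-3.34 ± 0.38, edgeR adjusted p = 6e-04). Without wild-type replicate 2 these differences were -2.42 and -2.64 on the log2 scale, and both passed the test.

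The cytosolic binding proteins Fabp1 and Fabp2 carry fatty acids from the membrane to the endoplasmic reticulum. Fabp1, the liver-type protein, lies on chromosome 6 (71199879 to 71205034). It stood at 42.05 and 111 CPM in EYFP cells, 87.6 and 88.1 CPM in EGFP cells and 3254 and 4193 CPM in wild type, so that the EYFP values fell on either side of the EGFP values. Relative to wild type it was 48.8-fold lower in EYFP cells (-5.61 ± 0.51, edgeR adjusted p = 0.00011), or -6.47 without EYFP replicate 2, and 42.4-fold lower in EGFP cells (-5.40 ± 0.51, edgeR adjusted p = 0.00026). Fabp2, the intestinal-type protein, lies on chromosome 3 (122895072 to 122899506). It stood at 74.9 and 149 CPM in EYFP cells, 268 and 336 CPM in EGFP cells and 4500 and 5995 CPM in wild type, with no overlap between any of the 3 groups. Against wild type it was 46.9-fold lower in EYFP cells (-5.55 ± 0.42, edgeR adjusted p = 2.9e-05) and 17.4-fold lower in EGFP cells (-4.12 ± 0.40, edgeR adjusted p = 0.00019).

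Dgat1 (chromosome 15, 76502012 to 76512021) encodes the acyltransferase that adds the last fatty acid to make triglyceride. It stood at 58.2 and 77.3 CPM in EYFP cells, 106 and 160 CPM in EGFP cells and 755 and 1153 CPM in wild type. The 3 groups did not overlap. Dgat1 was 14.1-fold lower in EYFP cells (-3.82 ± 0.32, edgeR adjusted p = 5.4e-05) and 7.16-fold lower in EGFP cells (-2.84 ± 0.30, edgeR adjusted p = 0.00036) than in wild type. In EGFP cells that was the difference nearest 0 among the 10 genes, and in EYFP cells the one nearest 0 was that of Npc1l1.

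Particle assembly rests on Mttp and Apob. Mttp (chromosome 3, 138089855 to 138143418) encodes the transfer protein that moves triglyceride onto apolipoprotein B in the endoplasmic reticulum. It stood at 53.9 and 115 CPM in EYFP cells, 126 and 160 CPM in EGFP cells and 2983 and 3770 CPM in wild type, each group below the next. It was 40.0-fold lower in EYFP cells (-5.32 ± 0.43, edgeR adjusted p = 4.7e-05), or -5.97 without EYFP replicate 2, and 23.6-fold lower in EGFP cells (-4.56 ± 0.41, edgeR adjusted p = 0.00018). Apob (chromosome 12, 7977629 to 8016839) encodes the protein around which each chylomicron forms. It stood at 150 and 251 CPM in EYFP cells, 107 and 168 CPM in EGFP cells and 2276 and 3160 CPM in wild type, and the sorted groups overlapped. It was 13.6-fold lower in EYFP cells (-3.76 ± 0.37, edgeR adjusted p = 0.00011) and 19.8-fold lower in EGFP cells (-4.31 ± 0.38, edgeR adjusted p = 0.00016).

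The 3 surface apolipoproteins share a gene cluster on chromosome 9. Apoa4, which is secreted on chylomicrons during fat absorption, stood at 69.4 and 164 CPM in EYFP cells, 90.6 and 88.0 CPM in EGFP cells and 5259 and 8883 CPM in wild type. It had the largest fold of the 10 in both comparisons, 60.6-fold lower in EYFP cells (-5.92 ± 0.53, edgeR adjusted p = 8e-05), or -6.67 without EYFP replicate 2, and 79.1-fold lower in EGFP cells (-6.31 ± 0.54, edgeR adjusted p = 0.00015). Apoa1, the main protein of high-density lipoprotein, stood at 78.7 and 167 CPM in EYFP cells, 76.7 and 153 CPM in EGFP cells and 3811 and 7680 CPM in wild type, so that the sorted groups covered nearly the same range. It was 46.8-fold lower in EYFP cells (-5.55 ± 0.64, edgeR adjusted p = 0.00043) and 49.9-fold lower in EGFP cells (-5.64 ± 0.64, edgeR adjusted p = 0.00078). The value in EYFP cells was -6.19 without EYFP replicate 2 and -4.96 without wild-type replicate 2, and in EGFP cells it was -5.05 without wild-type replicate 2. Apoc3, an inhibitor of lipoprotein lipase, stood at 17.5 and 27.3 CPM in EYFP cells, 10.6 and 23.7 CPM in EGFP cells and 309 and 624 CPM in wild type, again with overlap between the sorted groups. It was 20.9-fold lower in EYFP cells (-4.38 ± 0.56, edgeR adjusted p = 0.0013) and 26.9-fold lower in EGFP cells (-4.75 ± 0.58, edgeR adjusted p = 0.0018). Without wild-type replicate 2 these were -3.79 and -4.15, and without EGFP replicate 2 the second was -5.46.

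In the cluster, Apoa1 (46228630 to 46230469), Apoc3 (46233050 to 46235636) and Apoa4 (46240844 to 46243458) lie within 14.8 kb of chromosome 9. By RefSeq positions, 5 further genes of the count table lie within 100 kb of it. The neighbours had other patterns of level. Sik3, a kinase gene on one side, stood at 72.8 and 64.1 CPM in EYFP cells, 48.7 and 51.2 CPM in EGFP cells and 45.4 and 50.6 CPM in wild type. Apoa5, an apolipoprotein that activates triglyceride hydrolysis in plasma and is known mainly from liver, stood at 4.72 and 8.15 CPM in EYFP cells, 1.08 and 3.802 CPM in EGFP cells and 0.333 and 0.542 CPM in wild type. Apoa5 was thus low everywhere but higher in both kinds of sorted cell, by 3.81 ± 0.69 in EYFP cells (edgeR adjusted p = 0.002) and by 2.46 ± 0.71 in EGFP cells (edgeR adjusted p = 0.025) on the log2 scale. The call in EGFP cells was lost without EGFP replicate 2 (1.261, edgeR adjusted p = 0.25), wild-type replicate 1 (edgeR adjusted p = 0.11) or wild-type replicate 2 (edgeR adjusted p = 0.082), and the value was 3.17 without EGFP replicate 1. Zpr1 lay between 33.0 and 41.9 CPM and Bud13 between 14.4 and 19.3 CPM over all 6 libraries, and 4931429L15Rik was too low to be tested.

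**Figure D2:**
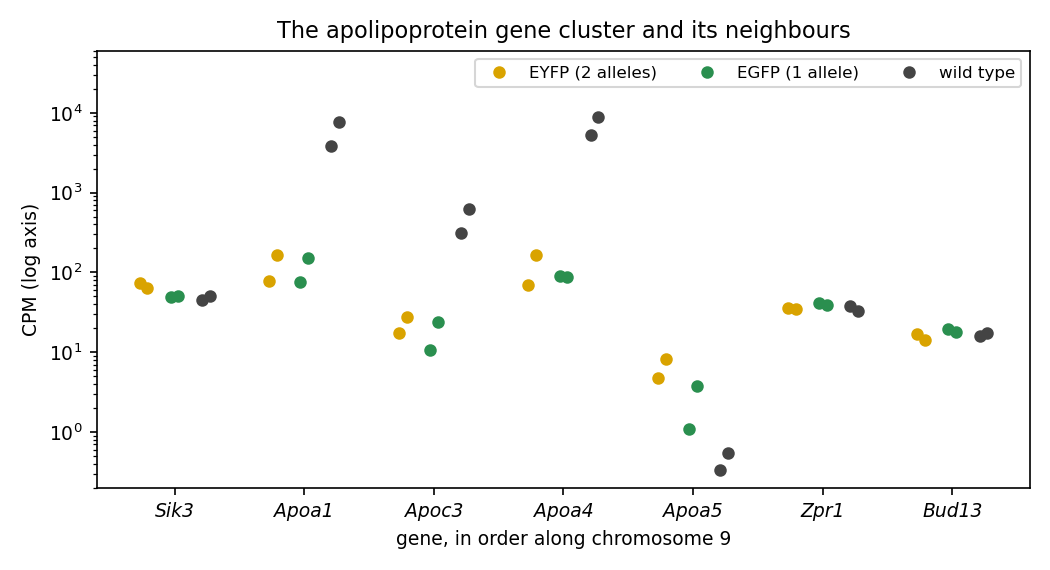
CPM (log axis) of the 3 apolipoprotein genes and 4 neighbours in their order along chromosome 9, 1 point per library, for EYFP, EGFP and wild-type libraries. Apoa1, Apoc3 and Apoa4 stand higher in wild type (309 to 8883 CPM) than in sorted cells (10.6 to 167 CPM), while Apoa5 is highest in EYFP cells and Zpr1 and Bud13 lie at similar levels in all groups.

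Of the 10 genes, 0 were higher and 2 were lower in EYFP than in EGFP cells, against 16.8% of all genes tested that were higher and 19.4% that were lower, so that the share of the 10 that was lower lay near that of all genes. The count higher was also 0 at an unadjusted p under 0.05 and in the DESeq2 Wald test. The 2 lower genes were Fabp2 and Dgat1. With the replicate number as a block in the model, 1 was higher (Apob) and 3 were lower (Mttp in addition). The median of the 10 was 0.16 on the log2 scale and that of all genes tested was 0.01. Fabp2 was 2.70-fold lower in EYFP cells (-1.43 ± 0.36, edgeR adjusted p = 0.018), and Dgat1 was 1.97-fold lower (-0.98 ± 0.29, edgeR adjusted p = 0.035). Neither call held when libraries were left out in turn. That of Fabp2 was lost without EGFP replicate 1 (edgeR adjusted p = 0.077), EGFP replicate 2 (0.09) or EYFP replicate 1 (-1.02, edgeR adjusted p = 0.096), and that of Dgat1 without EGFP replicate 2 (-0.65, edgeR adjusted p = 0.19), EYFP replicate 1 (-0.79, edgeR adjusted p = 0.18) or EYFP replicate 2 (-1.20, edgeR adjusted p = 0.065). Mttp had a difference of -0.76 ± 0.36 (edgeR adjusted p = 0.14), which became -1.42 (edgeR adjusted p = 0.03) without EYFP replicate 2. In the authors' deposited table the folds of EYFP over EGFP cells were 0.368 for Fabp2 (adjusted p = 1.61e-05), 0.505 for Dgat1 (adjusted p = 0.000593) and 0.586 for Mttp (adjusted p = 0.0505).

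The other 7 genes did not pass between the sorted groups. Apob had 0.55 ± 0.34 (edgeR adjusted p = 0.24), Cd36 0.39 ± 0.34 (0.39), Apoa4 0.39 ± 0.43 (0.52), Apoc3 0.36 ± 0.52 (0.62), Npc1l1 0.23 ± 0.35 (0.64), Apoa1 0.09 ± 0.53 (0.91) and Fabp1 -0.20 ± 0.42 (0.74). The SE of these values spans 0.34 to 0.53. With 2 libraries a group, the smallest difference that passed among the 10 genes was that of Dgat1, and that of Mttp (-0.76) did not pass. Fabp2, Mttp and Dgat1 had both EYFP libraries below both EGFP libraries, and Npc1l1 had both above, while the other 6 genes overlapped. Of all genes tested, 37.0% lay below and 37.3% above without overlap. Leaving out 1 library turned the sign of 5 genes. Apoa1 had -0.26 without EGFP replicate 1 and -0.55 without EYFP replicate 2, and Apoc3 had -0.03 without EGFP replicate 1. Apoa4 and Cd36 had -0.37 and -0.12 without EYFP replicate 2, and Fabp1 had 0.33 without EYFP replicate 1.

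**Figure D3:**
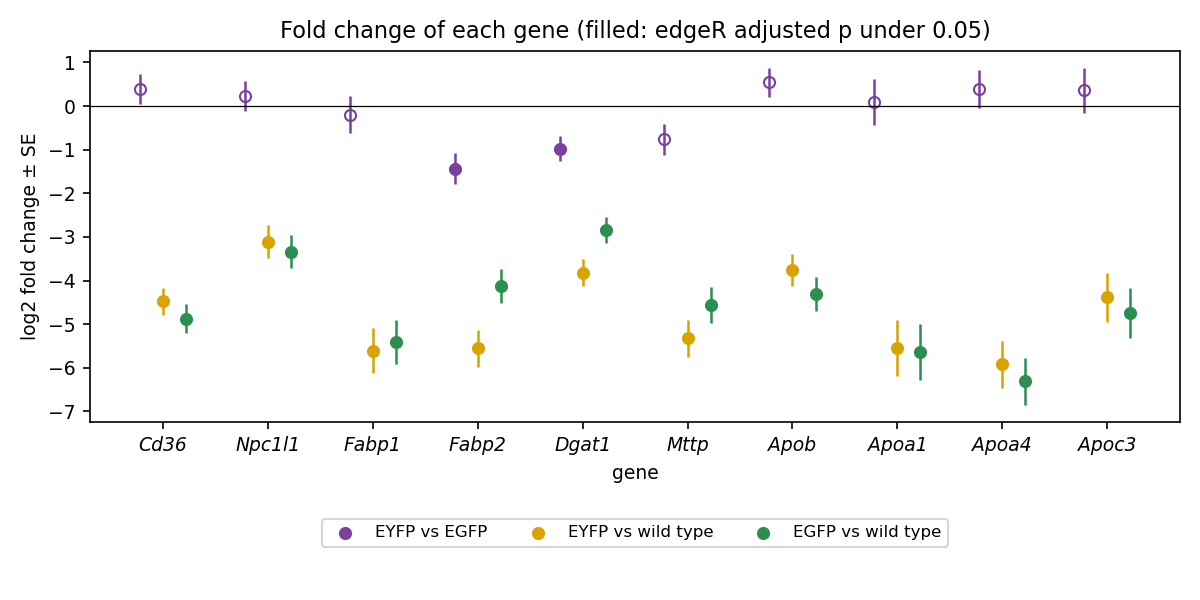
Log2 fold change ± SE of each gene for EYFP against EGFP cells, EYFP cells against wild type and EGFP cells against wild type, where filled points passed edgeR at an adjusted p under 0.05. Every gene lies between -6.31 and -2.84 in the comparisons with wild type, whereas between EYFP and EGFP cells the points range from -1.43 for Fabp2 to 0.55 for Apob.

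**Figure D4:**
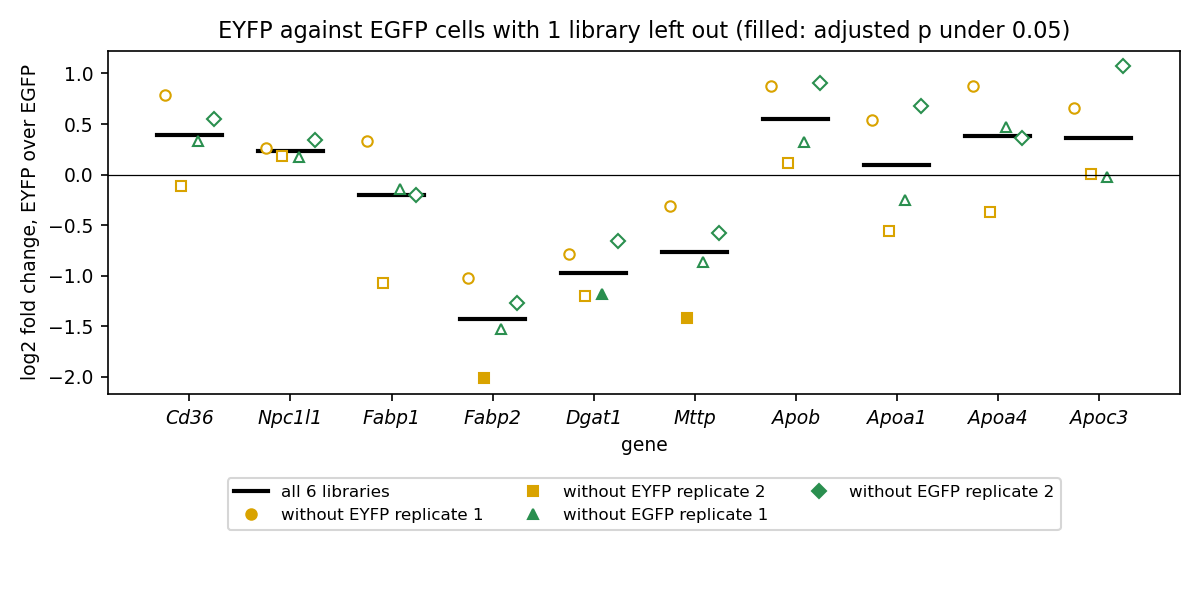
Log2 fold change of EYFP over EGFP cells for each gene with all libraries (bar) and with each of the 4 EYFP and EGFP libraries left out (points), where filled points passed edgeR at an adjusted p under 0.05. Fabp2 and Dgat1 stay below 0 in every case but are not filled in several of them, and Mttp is filled without EYFP replicate 2.

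Replicates of a group also differed for these genes, mostly in 1 direction. In EYFP cells all 10 genes were higher in replicate 2 than in replicate 1, by 1.05- to 2.64-fold with a median of 1.93, against a median of 0.984 over all genes tested. In EGFP cells 9 of 10 were higher in replicate 2 (0.971- to 2.24-fold, median 1.262, against 0.997 over all genes). In wild type 10 of 10 were higher in replicate 2 (1.264- to 2.23-fold, median 1.46, against 1.05 over all genes). The wild-type replicates also differed in the sex-linked Xist (1.17 and 726 CPM) and Ddx3y (62.3 and 0.121 CPM). Summed enterocyte markers, given below, were higher in replicate 2 of each group too. The summed level of the 10 was 693 and 1221 CPM in EYFP cells, 993 and 1318 CPM in EGFP cells and 24033 and 37346 CPM in wild type.

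A list of 20 enterocyte markers outside lipid handling (brush border hydrolases, sugar and peptide carriers and structural genes) moved with the 10 genes. Its members were lower in 20 of 20 cases in EYFP cells (median -4.01) and in 20 of 20 in EGFP cells (median -4.08) relative to wild type. Of all genes tested, 33.5% were lower in EYFP cells and 21.9% in EGFP cells. Between EYFP and EGFP cells 0 of the 20 were higher and 1, Enpep, was lower in edgeR (median -0.11), against 16.8% and 19.4% of all genes tested. At an unadjusted p under 0.05, 2 were higher and 3 lower, and in the DESeq2 Wald test 2 were higher and 3 lower. Alpi, intestinal alkaline phosphatase, stood at 20.99 and 44.3 CPM in EYFP cells, 35.1 and 49.3 CPM in EGFP cells and 1462 and 1520 CPM in wild type. The summed level of the 20 markers was 3077 and 3966 CPM in EYFP cells, 3063 and 3778 CPM in EGFP cells and 23607 and 46416 CPM in wild type, with no marker at 0 in any library. The 10 lipid genes summed to 0.225 and 0.308 of that amount in EYFP cells, 0.324 and 0.349 in EGFP cells, and 1.02 and 0.805 in wild type. Structural genes weigh on this ratio, since Vil1, Krt20 and Cdhr5 fell less than the list median. Relative to wild type they had -2.39, -1.37 and -1.46 in EYFP cells and -2.12, -1.37 and -1.45 in EGFP cells. In replicate 1 they stood at 629, 493 and 402 CPM in EYFP, 683, 439 and 384 CPM in EGFP, and 2371, 1161 and 1026 CPM in wild type. The part of enterocyte content in the differences of the lipid genes was not tested.

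Other cell types that a sort or a tissue could hold were read from marker lists. Counts in these and the further marker lists below stand beside the shares of all genes tested. Between EYFP and EGFP cells 16.8% were higher and 19.4% lower. Relative to wild type 27.1% were higher and 33.5% lower in EYFP cells, and 19.6% and 21.9% in EGFP cells. The 12 enteroendocrine markers summed to 61656 and 46167 CPM in EYFP cells, 9151 and 13541 CPM in EGFP cells and 518 and 586 CPM in wild type. All 12 were higher in EYFP than in EGFP cells and in both sorted groups than in wild type, with Chga at 10621 and 9605 CPM in EYFP, 1988 and 3355 CPM in EGFP, and 126 and 144 CPM in wild type. The 10 goblet and Paneth markers summed to 1085 and 2025 CPM in EYFP cells, 70088 and 110436 CPM in EGFP cells and 11221 and 13475 CPM in wild type. Of these, 10 were lower in EYFP than in EGFP cells, 8 were lower in EYFP cells than in wild type, and 7 were higher in EGFP cells than in wild type. The 8 markers of dividing crypt cells were all lower in EYFP cells, at 536 and 621 CPM in sum, than in EGFP cells (2008 and 1714 CPM) and in wild type (2333 and 1529 CPM), and in EGFP cells 1 was higher than in wild type. Tuft markers summed to 5.0 and 13.5 CPM in EYFP cells, 178 and 104 CPM in EGFP cells and 19.97 and 83.3 CPM in wild type. Of the 5 tested, 5 were lower in EYFP than in EGFP cells, 2 were lower in EYFP cells than in wild type and 2 were higher in EGFP cells than in wild type. The part of these cell types in the differences between EYFP and EGFP cells was not tested.

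Several of the 10 genes are also expressed by other tissues, among them liver (Apoa1, Apob, Apoc3, Fabp1), fat and macrophages (Cd36). Hepatocyte markers summed to 42.4 and 91.0 CPM in EYFP cells, 32.1 and 25.9 CPM in EGFP cells and 2.50 and 1.51 CPM in wild type. The 3 that could be tested were higher in both sorted groups than in wild type, with 1 of 3 higher in EYFP than in EGFP cells. The most abundant of them in every library was albumin (Alb), at 30.4 and 69.9 CPM in EYFP cells, 17.1 and 13.0 CPM in EGFP cells and 1.997 and 0.663 CPM in wild type. F2 stood at 9.65 and 15.1 CPM in EYFP cells, 3.74 and 7.86 CPM in EGFP cells and 0.166 and 0.603 CPM in wild type. Tat stood at 2.32 and 5.97, 11.1 and 4.90, and 0.333 and 0.241 CPM in the same order. Ahsg was at no more than 0.121 CPM in any library, and Cyp7a1 was at 0 in all 6. The 5 adipocyte markers summed to at most 1.261 CPM in any library, with 2 to 4 of them at 0. Macrophage markers summed to 234 and 5.21 CPM in EYFP cells, 13.1 and 48.3 CPM in EGFP cells and 15.5 and 10.5 CPM in wild type, most of it Lyz2 (206 CPM) in EYFP replicate 1. Of the 4 tested, 1 was lower in EYFP than in EGFP cells and none passed edgeR against wild type, at an unadjusted p under 0.05 or in the DESeq2 Wald test. Endothelial markers summed to 26.3 and 23.5 CPM in EYFP cells, 9.76 and 9.38 CPM in EGFP cells and 8.07 and 8.01 CPM in wild type, with 1 of 3 tested higher in EYFP than in EGFP cells, 2 of 3 higher in EYFP cells and 1 of 3 higher in EGFP cells than in wild type. Most of the EYFP amount was Pecam1 (18.7 and 14.5 CPM), and Cdh5 and Kdr were at no more than 0.141 CPM in any library. Cd36, which both of these cell types express, was at 3.24 and 6.05 CPM in EYFP replicates 1 and 2. The part of liver, fat, macrophage and endothelial cells in the levels of the 10 genes was not tested.

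Gut position bears on these genes, since fat is absorbed mainly in the proximal small intestine. The 5 proximal markers summed to 255 and 302 CPM in EYFP cells, 209 and 229 CPM in EGFP cells and 443 and 355 CPM in wild type. Of them 1 was lower in EYFP than in EGFP cells, 2 were lower in EYFP cells and 1, Gata4, was lower in EGFP cells than in wild type. These counts lay near the shares of all genes tested that were lower (19.4%, 33.5% and 21.9%). In edgeR 0 of the 5 were higher in any comparison, against 16.8%, 27.1% and 19.6% of all genes tested. In EYFP cells against wild type, 1 was higher at an unadjusted p under 0.05 and in the DESeq2 Wald test. Pdx1 stood at 13.7 and 14.0 CPM in EYFP cells, 6.75 and 11.1 CPM in EGFP cells and 10.1 and 5.30 CPM in wild type. Gata4 stood at 138 and 131 CPM in EYFP cells, 114 and 124 CPM in EGFP cells and 255 and 257 CPM in wild type. The 5 distal markers summed to 9.37 and 8.41 CPM in EYFP cells, 16.3 and 7.60 CPM in EGFP cells and 63.2 and 80.9 CPM in wild type. Most of the wild-type amount was Slc51b (54.8 and 71.0 CPM), a bile acid transporter subunit, and the ileal bile acid binding gene Fabp6 was at no more than 6.99 CPM anywhere. Of the 2 distal markers tested, 1 was lower in each sorted group than in wild type and 0 passed edgeR between EYFP and EGFP cells (1 lower at an unadjusted p under 0.05 and 0 in the DESeq2 Wald test). The part of gut position was not tested.

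A further 6 lists cover the rest of the pathway. Over the 6 lists together, most members were lower in sorted cells than in wild type. The list medians (-2.01 to -0.73 in EYFP and -1.77 to -1.03 in EGFP cells) were nearer 0 than those of the 10 genes. List counts stand beside the shares of all genes tested relative to wild type. In EYFP cells 33.5% were lower and 27.1% higher, and in EGFP cells 21.9% were lower and 19.6% higher. The share of uptake genes that was higher lay near that of all genes. Among 12 uptake and activation genes tested, 6 were lower and 4 higher in EYFP cells, and 7 were lower and 3 higher in EGFP cells, than in wild type. Acsl5, which activates fatty acids to acyl-CoA, stood at 141 and 181 CPM in EYFP cells against 1993 and 2988 CPM in wild type (-3.95 ± 0.28, edgeR adjusted p = 2.1e-05). Slc27a4, a fatty acid transport protein, stood at 72.4 and 98.6 CPM in EGFP cells against 852 and 1400 CPM in wild type (-3.72 ± 0.30, edgeR adjusted p = 9.1e-05). Scarb1, the scavenger receptor that exchanges cholesterol with lipoproteins, went the other way. It stood at 106 and 124 CPM in EYFP cells, 34.0 and 49.3 CPM in EGFP cells and 14.6 and 5.79 CPM in wild type. Scarb1 rose by 3.51 ± 0.45 in EYFP cells (edgeR adjusted p = 0.00085) and by 2.05 ± 0.43 in EGFP cells (edgeR adjusted p = 0.011) relative to wild type. Without wild-type replicate 1 these were 4.31 and 2.85, and the call in EGFP cells was lost without EGFP replicate 2 (1.76, edgeR adjusted p = 0.063). Without EGFP replicate 2, 1 uptake gene was higher in EGFP cells.

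Of 12 glyceride and sterol ester synthesis genes, 8 were lower and 3 higher in EYFP cells and 9 were lower and 2 higher in EGFP cells than in wild type. Mogat2, the acyltransferase that acts on monoglyceride just before DGAT1 in the enterocyte, stood at 15.8 and 20.8 CPM in EYFP cells, 23.0 and 28.8 CPM in EGFP cells and 384 and 601 CPM in wild type (-4.75 ± 0.29 in EYFP and -4.24 ± 0.28 in EGFP cells). Gpat3 (row Agpat9), of the glycerol phosphate route, stood at 4.08 and 6.47 CPM in EYFP cells, 13.9 and 14.4 CPM in EGFP cells and 102 and 179 CPM in wild type. Gpat4 (row Agpat6) of the same enzyme family rose by 1.27 ± 0.13 in EYFP cells (edgeR adjusted p = 9.9e-05), and Soat1, which esterifies cholesterol in many cell types, rose by 0.69 ± 0.16 in EGFP cells (edgeR adjusted p = 0.0099). Without EGFP replicate 1, 6 were lower in EGFP cells, and 1 was higher in EYFP cells without EYFP replicate 1 or wild-type replicate 1.

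Of 15 lipoprotein assembly and export genes, 11 were lower and 1 higher in EYFP cells and 10 were lower and 3 higher in EGFP cells than in wild type. Apoc2, the cofactor of lipoprotein lipase, stood at 9.58 and 26.9 CPM in EYFP cells, 23.6 and 51.5 CPM in EGFP cells and 499 and 813 CPM in wild type. Its log2 fold change was -5.17 ± 0.72 in EYFP cells (-6.10 without EYFP replicate 2) and -4.12 ± 0.68 in EGFP cells (-4.79 without EGFP replicate 2). The members higher in EGFP cells were Apoa5, Sar1a and Mia3, of which the last 2 belong to the export of cargo from the endoplasmic reticulum. Fewer were higher in EGFP cells without wild-type replicate 2, and fewer were lower without EGFP replicate 1. In EYFP cells Apoa5 was the 1 higher, and 2 were higher without EYFP replicate 2.

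Of 7 lipid droplet and lipolysis genes, 5 were lower and 1 higher in EYFP cells and 6 were lower and 1 higher in EGFP cells than in wild type. Fewer droplet genes were lower in EGFP cells without EGFP replicate 1. Plin2, which coats droplets, stood at 45.6 and 48.1 CPM in EYFP cells, 41.1 and 46.6 CPM in EGFP cells and 181 and 118 CPM in wild type. The lysosomal lipase gene Lipa was lower in EGFP cells (-3.45 ± 0.25) and the hormone-sensitive lipase gene Lipe in EYFP cells (-2.90 ± 0.17). Mgll, monoglyceride lipase, was the 1 higher in both. It stood at 71.8 and 90.9 CPM in EYFP cells, 18.1 and 53.1 CPM in EGFP cells and 2.66 and 2.65 CPM in wild type. Mgll rose by 4.93 ± 0.57 in EYFP cells (edgeR adjusted p = 0.00064) and by 3.75 ± 0.56 in EGFP cells (edgeR adjusted p = 0.0031), and the value in EGFP cells was 4.42 and 2.76 without EGFP replicates 1 and 2.

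Of 16 regulators, 13 were lower and 0 higher in EYFP cells (0 also at an unadjusted p under 0.05 and in the DESeq2 Wald test) and 11 were lower and 1 higher in EGFP cells than in wild type. Fewer regulators were lower in EGFP cells without EGFP replicate 1 or 2. Hnf4a stood nearer to its wild-type level than its paralog Hnf4g. Hnf4a stood at 490 and 459 CPM in EYFP cells, 743 and 718 CPM in EGFP cells and 984 and 954 CPM in wild type (-1.03 ± 0.17 in EYFP cells, edgeR adjusted p = 0.0013, and -0.41 ± 0.17 in EGFP cells, edgeR adjusted p = 0.093). Hnf4g stood at 51.6 and 71.0 CPM in EYFP cells, 61.9 and 60.9 CPM in EGFP cells and 493 and 555 CPM in wild type (-3.10 in EYFP and -3.09 in EGFP cells). Creb3l3, a membrane-bound factor known in mouse liver to activate apolipoprotein genes, had the largest fall of the list. It stood at 8.59 and 21.4 CPM in EYFP cells, 7.23 and 11.7 CPM in EGFP cells and 439 and 523 CPM in wild type (-5.01 ± 0.49, or -5.81 without EYFP replicate 2, and -5.65 ± 0.51). Srebf2, which controls sterol synthesis, was the 1 higher in EGFP cells (0.40 ± 0.13, edgeR adjusted p = 0.04), a call lost without any 1 of the 6 libraries (edgeR adjusted p from 0.068 to 0.17). Of 14 oxidation and ketogenesis genes, 11 were lower in EYFP and 10 in EGFP cells than in wild type, and 0 were higher in edgeR, at an unadjusted p under 0.05 or in the DESeq2 Wald test. Ehhadh, of peroxisomal oxidation, was lower in EYFP cells (-2.91 ± 0.17). Cpt1a, the carnitine transferase that admits fatty acids to mitochondria, stood at 143 and 181 CPM in EYFP cells, 140 and 202 CPM in EGFP cells and 317 and 226 CPM in wild type. Its difference was -0.75 ± 0.24 in EYFP cells (edgeR adjusted p = 0.031; lost without EGFP replicate 1, EYFP replicate 1 or wild-type replicate 1), and in EGFP cells its difference was -0.67 ± 0.24 (edgeR adjusted p = 0.062; past the test without EGFP replicate 2 or wild-type replicate 2).

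**Figure D5:**
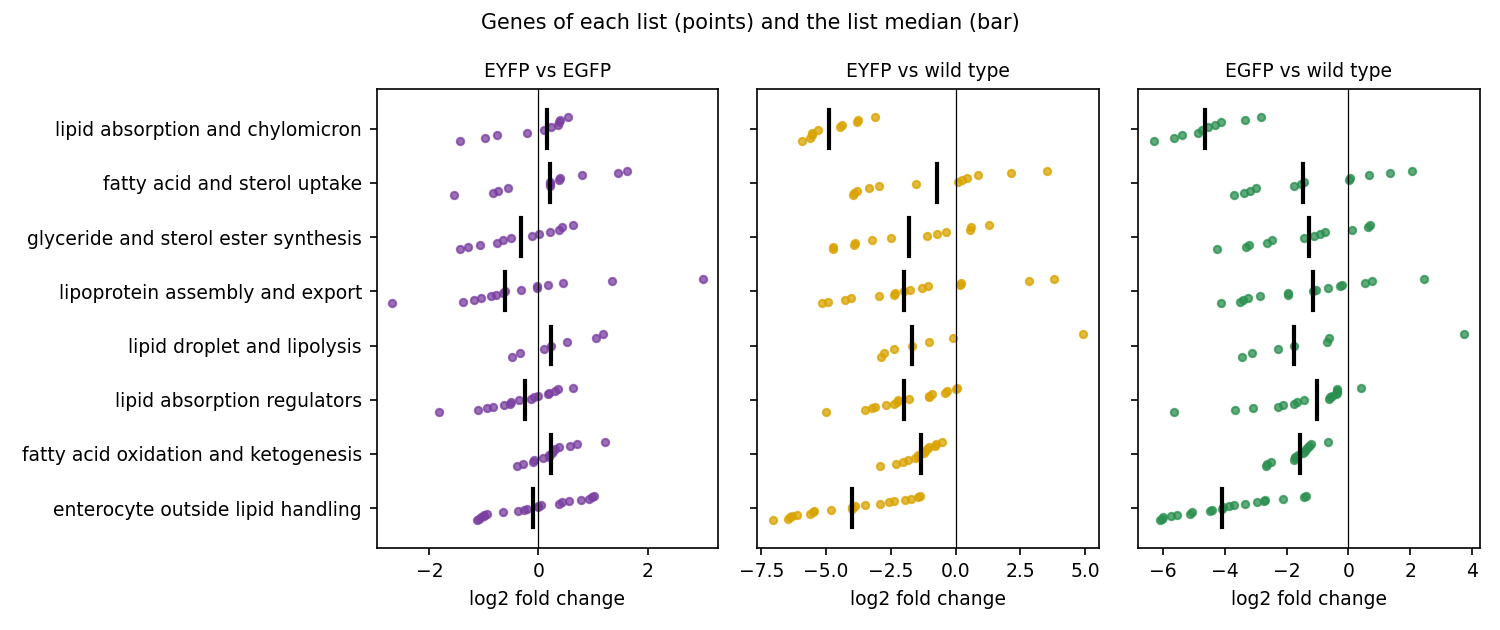
Log2 fold change of each gene (points) and the median (bar) for the 10 lipid genes, 6 pathway lists and the enterocyte markers, with EYFP against EGFP cells, EGFP cells against wild type and EYFP cells against wild type in separate panels. The 10 genes and the enterocyte markers have medians between -4.90 and -4.01 in the panels against wild type, and the pathway lists between -2.01 and -0.73.

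Between EYFP and EGFP cells the counts of the pathway lists stand beside the 16.8% of all genes tested that were higher and the 19.4% that were lower. The numbers higher and lower were 3 and 1 of 12 for uptake (Scarb1, Acsl4 and Abca1, and Dbi), 1 and 4 of 12 for synthesis (Gpat4, and Dgat2, Gpat3, Agpat2 and Lpin3), 0 and 5 of 15 for assembly (Apobec1, Tm6sf2, Surf4, Mia3 and P4hb), 1 and 0 of 7 for droplets (Lipa), 0 and 6 of 16 for regulators, and 1 and 0 of 14 for oxidation (Cpt2). Apobec1 edits the Apob transcript to the short form carried by mouse chylomicrons. It stood at 4.30 and 6.14 CPM in EYFP cells, 33.0 and 33.7 CPM in EGFP cells and 41.4 and 39.8 CPM in wild type, so that EYFP cells stood apart from both other groups (-2.68 ± 0.21 against EGFP cells, edgeR adjusted p = 0.00025). Ppard, a fatty acid sensing nuclear receptor, stood at 32.3 and 38.8 CPM in EYFP cells, 127 and 126 CPM in EGFP cells and 133 and 196 CPM in wild type (-1.83 ± 0.21 against EGFP cells). Dbi, the acyl-CoA binding protein, stood at 53.4 and 65.6 CPM in EYFP cells against 175 and 171 CPM in EGFP cells (-1.54 ± 0.16). Abca1, a cholesterol exporter, stood at 31.1 and 39.2 CPM in EYFP cells against 10.5 and 12.2 CPM in EGFP cells (1.63 ± 0.20, edgeR adjusted p = 0.0011). The calls of Scarb1 (1.46, edgeR adjusted p = 0.035) and Hnf4a (-0.62, edgeR adjusted p = 0.025) were lost without any 1 of the 4 libraries compared. That of Gpat3 (-1.43) was lost without either EGFP replicate or EYFP replicate 1, those of Lipa (1.06) and Cpt2 (0.58) without EGFP replicate 1 or EYFP replicate 1, and Cpt2 also without EYFP replicate 2. That of Gpat4 (0.63) was lost without EYFP replicate 1 (edgeR adjusted p = 0.051). Leaving out 1 library moved the counts too. Uptake genes higher were 1 without EGFP replicate 2, EYFP replicate 1 or EYFP replicate 2. Synthesis genes lower were 2 without EGFP replicate 1 or 2. Without EYFP replicate 1 they were 1, and 0 were higher. Assembly genes lower were 2 without EGFP replicate 1 and 3 without EGFP replicate 2 or EYFP replicate 1. Regulators lower were 2 without EGFP replicate 1 or EYFP replicate 1, and 3 without EGFP replicate 2 or EYFP replicate 2. Droplet genes higher were 0 without EGFP replicate 1 or EYFP replicate 1, and oxidation genes higher were 0 without EGFP replicate 1 or EYFP replicate 2. Other counts went up. Droplet genes higher were 2 without EGFP replicate 2, wild-type replicate 1 or wild-type replicate 2, and without either wild-type library 1 droplet gene and 2 uptake genes were lower. Assembly genes higher were 1 without EGFP replicate 2 or EYFP replicate 2, and regulators higher were 1 without EYFP replicate 1. With all libraries, at an unadjusted p under 0.05, 2 droplet genes and 1 oxidation gene were lower, and 0 assembly genes and 0 regulators were higher; in the DESeq2 Wald test each of these counts was 0. Apoc2, Mogat2, Plin2 and Cpt1a did not pass, at -1.06, -0.50, 0.09 and -0.08.

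Levels of different genes were compared per kilobase of transcript. In wild type Fabp1 led at 6733 ± 1201 CPM per kb, followed by Apoa1 (5551 ± 2643), Fabp2 (5438 ± 1095) and Apoa4 (3896 ± 1412), and neighbours among these 4 overlapped. A gap separated them from Mttp (960 ± 158), Apoc3 (888 ± 424) and Dgat1 (505 ± 149), which overlapped as neighbours. Npc1l1 (287 ± 154) and Apob (195 ± 44.9) overlapped below them, and Cd36 (34.0 ± 6.44) stood last. In EYFP cells Fabp1 (138 ± 87.9), Apoa1 (119 ± 60.4) and Fabp2 (116 ± 54.2 CPM per kb) led, and each gene overlapped the next in order except Apob, which stood above Cd36. In EGFP cells Fabp2 led at 313 ± 49.4 CPM per kb, without overlap above Fabp1 (159 ± 0.653) and Apoa1 (111 ± 52.3). Dgat1 was number 4 in that order (70.5 ± 20.2) and number 7 in wild type. Cd36 was last in all 3 groups, at 1.54 ± 0.660 in EYFP and 1.15 ± 0.157 CPM per kb in EGFP cells.

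Genes most like Apob, Fabp2 and Dgat1 were sought by the root mean square difference of log2 CPM, each gene centred on its own mean, over the 6 libraries and 9998 genes with a mean of at least 10 CPM. With 3 groups of 2, such likeness rests mainly on the differences between groups. Nearest to Apob were Cmbl (0.156), Gpt (0.210) and Rhod (0.240 log2 units). Nearest to Fabp2 were Slc51a (0.126), Lgals3 (0.203) and Xdh (0.220), and nearest to Dgat1 were Ckmt1 (0.126), Slc6a4 (0.136) and Pls1 (0.139). Among the 10 genes themselves the closest pair was Fabp2 and Mttp (0.275), the next Apob and Cd36 (0.310), and the farthest pair Apoa4 and Npc1l1 (1.47 log2 units).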

How the data were processed

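RNA from 6 libraries in 3 groups of 2 was extracted with the RNeasy Micro kit and made into Illumina TruSeq libraries, per the labels' protocols. The submitters' processing notes name the build mm10, RSEM 1.3.1, Bowtie2, DESeq2 1.26.0 and FastQC 0.11.8, without role or strand setting. Estimated counts per gene were deposited by the authors, with reads that match several genes divided by the estimation. In a second deposited table the authors give a signal (count over size factor) for each library and, for each comparison, an adjusted p-value and a linear fold of the second-named group over the first. Columns of the EYFP libraries carry EGFP with the word addon in the deposited tables and were matched by that word.

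Counts were rounded, filtered with filterByExpr, scaled with TMM and tested in edgeR 4.0.16 (R 4.3.3; quasi-likelihood F test, robust, 1 model of 3 group means, 3 residual degrees of freedom, Benjamini-Hochberg adjustment at 0.05), after the procedure was tested on simulated data. The SE comes from the F value. Total counts per library were 7938358 to 20589683. Of 172 list symbols, 171 had a row, 5 of them under another name. Transcript lengths are from GENCODE vM21, positions and promoters from RefSeq GRCm38.p6. The 10 genes and the lists were chosen with earlier results of these data known. Pathway genes named are the first of each list, those with the largest change past the test in each direction, and members that make up a small count; Hnf4g was chosen after its values were seen. A member that this rule names and a further motif searched are not reported here. The 13 alternatives were size factors from DESeq2, TMM without the 50 most abundant genes, no filter, a minimum of 10 counts in each library of a group, the Wald test of DESeq2 1.42.0, a fit of only the 4 libraries compared, a replicate block, and leaving out each library, with the spread of a group left with 1 library taken from the other groups.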

Additional observations from a re-analysis of the deposited data

How the results depend on the processing

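All 10 genes kept their fall and their call against wild type in all 13 alternatives in EYFP and in EGFP cells (10 lower throughout). Between EYFP and EGFP cells, 115 of the 130 values of single genes kept direction and side of the threshold, 6 reversed, 6 lost and 3 gained a call. The number of genes lower ranged from 0 (without EGFP replicate 2 or EYFP replicate 1) to 2 with 1 library left out, and was 1 without EGFP replicate 1. With 1 library left out, differences that changed sign ranged from -0.55 to 0.68 for Apoa1 (also -0.26), -0.029 to 1.07 for Apoc3, -0.37 to 0.88 for Apoa4, -0.12 to 0.79 for Cd36, -1.07 to 0.33 for Fabp1 and -0.26 to 0.21 for Cpt1a of the oxidation list (0.083 without EYFP replicate 1). The cause was not tested. Over all genes, 5045 differed between EYFP and EGFP cells, and 2392 to 5483 did with 1 library left out. Replicate numbers do not pair the libraries by their labels, and deviations of same-numbered libraries correlated at 0.0143 to 0.0964. With the replicate number as a block, 1 of the 10 genes was higher in EYFP than in EGFP cells (Apob, 0.54, edgeR adjusted p = 0.046) and Mttp was lower (-0.83, edgeR adjusted p = 0.03). Apoc2 and Mogat2 then passed as lower too and the call of Scarb1 was lost, while 3 uptake, 8 assembly and 1 oxidation genes were lower and 1 assembly and 2 droplet genes were higher. DESeq2 size factors gave a median of all genes in EYFP cells against wild type of -0.01, against -0.12 with TMM. With 2 libraries a group, differences of 0.55 (Apob) and -0.76 (Mttp) between EYFP and EGFP cells did not pass, and the smallest that did among the 10 genes was -0.98 (Dgat1).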
